A study of Mus musculus with 6 samples.

Results

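BAF (SWI/SNF) complexes are ATP-driven chromatin remodellers, and the 10 genes described here encode subunits listed for their switch from neural progenitors to neurons. They were Actl6a, Phf10 and Ss18, which belong to the progenitor complex, Actl6b, Dpf1, Dpf3 and Ss18l1, which belong to the neuronal complex, Dpf2, and the alternative ATPases Smarca4 and Smarca2. Dpf2 is kept in both complexes, and the ATPases are shifted rather than exchanged. The genes were taken by name from the deposited, filtered count matrix after its gene identifiers were matched to GENCODE M21 symbols, whose positions on mm10 (GRCm38) are given. All 10 were among the 17068 genes of the matrix. Bulk RNA-Seq libraries were made from the lateral cortex of 6 female embryos of strain c57/bl6 at E12.5, when cortical neurogenesis is beginning. Of the 4 Cre-negative controls, controls 1, 2 and 4 were Foxp1 fl/+ and control 3 was Foxp1 fl/fl. The other 2 embryos were Foxp1 fl/fl;Emx1Cre and were labelled Foxp1cKO, with 1 library per embryo throughout. Emx1Cre recombines in dorsal telencephalic progenitors and their progeny, so that vessels, microglia and neurons arriving from the ventral telencephalon keep the floxed alleles intact. Every library thus carried at least 1 floxed allele, and Cre occurred only with homozygous floxed alleles, so that effects of Cre and of the recombined allele cannot be told apart.

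As progenitors leave the cell cycle to become neurons, the BAF complex exchanges several subunits for paralogues made from other genes. The actin-related protein ACTL6A (BAF53A) gives way to ACTL6B (BAF53B), PHF10 (BAF45A) to DPF1 and DPF3 (BAF45B and BAF45C), and SS18 to SS18L1 (CREST). Progenitor subunits are needed for proliferation and neuronal subunits for dendrite growth and synaptic genes. In the exchange of ACTL6A for ACTL6B, the microRNAs miR-9-3p (miR-9*) and miR-124 repress Actl6a in neurons, and the repressor REST holds back these microRNAs in progenitors.

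Sequences of miR-9-3p, Actl6a and Actl6b were read from the reference. They are shown because the regulators that pair with or bind such letters were also measured through their genes. In the mature microRNA, the seed (bases 2 to 8) is in capitals. In the Actl6a line, the capitals mark the 7 bases complementary to that seed, which begin at base 38 of the 371-base Actl6a 3′ UTR (chr3:32726628-32726649, plus strand, GRCm38.p6).
mmu-miR-9-3p: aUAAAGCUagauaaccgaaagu
Actl6a 3′ UTR: ctcaacgtctgtAGCTTTAgta
The microRNA is given by RefSeq with the same mature sequence from Mir9-1, Mir9-2 and Mir9-3. Of the 10 subunits, 2 had a match to the seed in the 3′ UTR of the GENCODE M21 transcript searched, namely Actl6a and Smarca2. These 3′ UTRs were searched whole and are 90 to 3087 bases long, so no share over other genes is set beside the count. That of Actl6a has 371 bases, and of 15654 genes with a 3′ UTR of at least this length, 2.82% held the match within their first 371 bases. The RefSeq promoters of Actl6a (chr3:32708296-32708595, plus strand) and Actl6b (chr5:137553296-137553595, plus strand), from 250 bases before to 50 bases after the annotated start in GRCm38.p6, are shown because the ratio of this pair varied most among the controls. Capitals mark letters that read, on the opposite strand, as the left (CAGCACC) and right (GGACAGC) parts of the REST motif.
Actl6a promoter: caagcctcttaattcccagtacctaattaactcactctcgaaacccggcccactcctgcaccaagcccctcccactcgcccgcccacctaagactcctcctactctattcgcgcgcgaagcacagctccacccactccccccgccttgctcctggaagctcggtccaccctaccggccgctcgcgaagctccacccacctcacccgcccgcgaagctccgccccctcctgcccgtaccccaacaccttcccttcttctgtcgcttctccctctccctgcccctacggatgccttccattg
Actl6b promoter: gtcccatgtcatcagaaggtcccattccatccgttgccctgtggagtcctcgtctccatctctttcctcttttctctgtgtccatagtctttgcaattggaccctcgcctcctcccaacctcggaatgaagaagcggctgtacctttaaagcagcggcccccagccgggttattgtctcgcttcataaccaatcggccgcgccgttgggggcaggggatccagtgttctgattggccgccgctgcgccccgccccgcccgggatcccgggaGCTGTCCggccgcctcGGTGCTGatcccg
In the Actl6b promoter both parts lay 3′ of the annotated start in 1 orientation, 9 bases apart. The search took any gap of up to 20 bases, so the pair is not a match to the whole motif. On either strand, CAGCACC occurred in 7.14% and GGACAGC in 6.56% of 32851 promoters of the same length, and both in the same orientation with at most 20 bases between them occurred in 23 (0.07%). A promoter was given for 9 of the 10 subunits, and 1 of these, that of Actl6b, held the pair. The matches are descriptions of sequence and no binding was measured.

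The libraries held 50076008 to 78346979 counts in all, and the subunits had from 454 counts (Dpf3) to 51889 counts (Smarca4). Foxp1, the targeted gene, had 59.7, 60.8, 71.2 and 79.1 CPM (counts scaled by TMM to a common library size) in controls 1 to 4 and 83.2 and 76.8 CPM in the libraries labelled Foxp1cKO. Its count was not lower in the latter, so every direction below rests on the labels. Gene-level counts take in exons that Cre leaves in place. Of the radial glia and neuron markers, 7 of 8 each were in the table and all of these were above the floor of 3 counts in every library. Sox2 and Tubb3 were not analysed here. Of the markers of other cells, all 3 of pericytes and 4 of 5 of red cells had positive log2 fold changes (libraries labelled Foxp1cKO minus controls), with medians of 0.56 and 0.67. By edgeR and limma 0 of either list passed the threshold used below, and by DESeq2 1 of each did. Over all genes, 49.3% of values were positive and 50.7% negative. Of the genes tested, edgeR called 0.152%, limma 0.158% and DESeq2 3.36%. All 4 intermediate progenitor markers had negative values (median -0.17). Of these 1, Btg2, at -0.35, was below all controls in both libraries labelled Foxp1cKO, against 13.1% of all genes. Of the 5 endothelial markers, 3 were positive and 2 negative (median 0.0035), and 1, Pecam1, at 0.65, was above all controls in both libraries. Over all genes, 11.5% were above all controls in this way. DESeq2 called 0 of the intermediate progenitor and 1 of the endothelial markers, and edgeR and limma 0 of either. Summed pericyte markers were at 49.9 to 63.0 CPM in the controls against 82.1 and 83.1 CPM in the libraries labelled Foxp1cKO, and summed red cell markers at 995 to 2827 CPM against 2990 and 3316 CPM. The sums were 622 to 842 CPM against 588 and 675 CPM for intermediate progenitors, and 108 to 168 CPM against 134 and 164 CPM for endothelium. For microglia they were 15.5 to 23.9 CPM against 20.7 and 21.9 CPM. Summed markers of meninges spread widely, at 258, 68.8, 37.5 and 158 CPM in controls 1 to 4 against 55.0 and 142 CPM. Their part in the results for the subunits was not tested. In bulk tissue, fewer cells of a type and less RNA per cell cannot be told apart.

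Both sets of subunits were expressed in every E12.5 library, and no single subunit of either passed the test between the groups. Of the 10 subunits, 0 passed an adjusted p-value of 0.05 by the quasi-likelihood test of edgeR with p-values adjusted over the whole table by the Benjamini-Hochberg method, against 26 of 17068 genes (0.152%). DESeq2, which called 3.36% of the genes it tested, and limma, which called 0.158%, also called 0 of them, and 1 of the 10, Actl6a, had an unadjusted p-value under 0.05 in edgeR, against 13.0% of all genes. The median log2 fold change (libraries labelled Foxp1cKO minus controls, called the log2 difference of a gene from here on) was -0.11 for Actl6a, Phf10 and Ss18, -0.075 for the 4 neuronal subunits and -0.0044 for all genes. Of the 10, 3 were positive, against 49.3% of all genes, and 7 were negative, against 50.7%. Both libraries labelled Foxp1cKO lay inside the controls' range for 8 of the 10, against 40.6% of all genes. What varied was the neuronal set among the controls, where the highest library had from 1.89 to 2.61 times the CPM of the lowest.

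Actl6a, the progenitor actin-related subunit (ENSMUSG00000027671.14, chr3:32706298-32726973), had 152, 142, 132 and 157 CPM in controls 1 to 4, and 118 and 126 CPM in the libraries labelled Foxp1cKO 1 and 2. Both of the latter were below all controls, a separation that held in this direction for 13.1% of all genes. Its log2 difference was -0.26 (SE, standard error, 0.0913; 95% interval -0.47 to -0.043; edgeR adjusted p = 0.332), the lowest value among the 10. In each of 15 alternative fits it was negative, between -0.32 and -0.21, with an adjusted p of 0.0657 to 0.902. Actl6a shares 452 exonic bases (11.6% of its exons) with Mrpl47 on the opposite strand, and the strand setting of the counting was not stated. For Mrpl47 the value was -0.19 (SE 0.105, edgeR adjusted p = 0.487), also with both libraries labelled Foxp1cKO below all controls.

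Phf10, a PHD finger subunit of the progenitor complex (ENSMUSG00000023883.13, chr17:14945009-14961273), had 88.4, 84.5, 78.8 and 97.4 CPM in controls 1 to 4, and 95.9 and 94.4 CPM in the libraries labelled Foxp1cKO. These lay between control 1 and control 4. The log2 difference was 0.12 (SE 0.0957, 95% interval -0.10 to 0.35, edgeR adjusted p = 0.607), opposite in sign to that of Actl6a. Phf10 shares 470 exonic bases (9.56%) with 1600012H06Rik on the opposite strand, for which the log2 fold change was -0.17 (SE 0.0855). Ss18, a dedicated subunit of BAF complexes that is lost as neurons form (ENSMUSG00000037013.15, chr18:14624198-14682914), had 109, 96.9, 88.8 and 111 CPM in controls 1 to 4 and 96.9 and 90.4 CPM in the libraries labelled Foxp1cKO. Both were inside the range of the controls. For Ss18 the difference was -0.11 (SE 0.109, 95% interval -0.37 to 0.14, edgeR adjusted p = 0.684). Of the 3 progenitor subunits, 2 thus had negative values and 1 a positive value, and none passed the threshold.

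**Figure D1:**
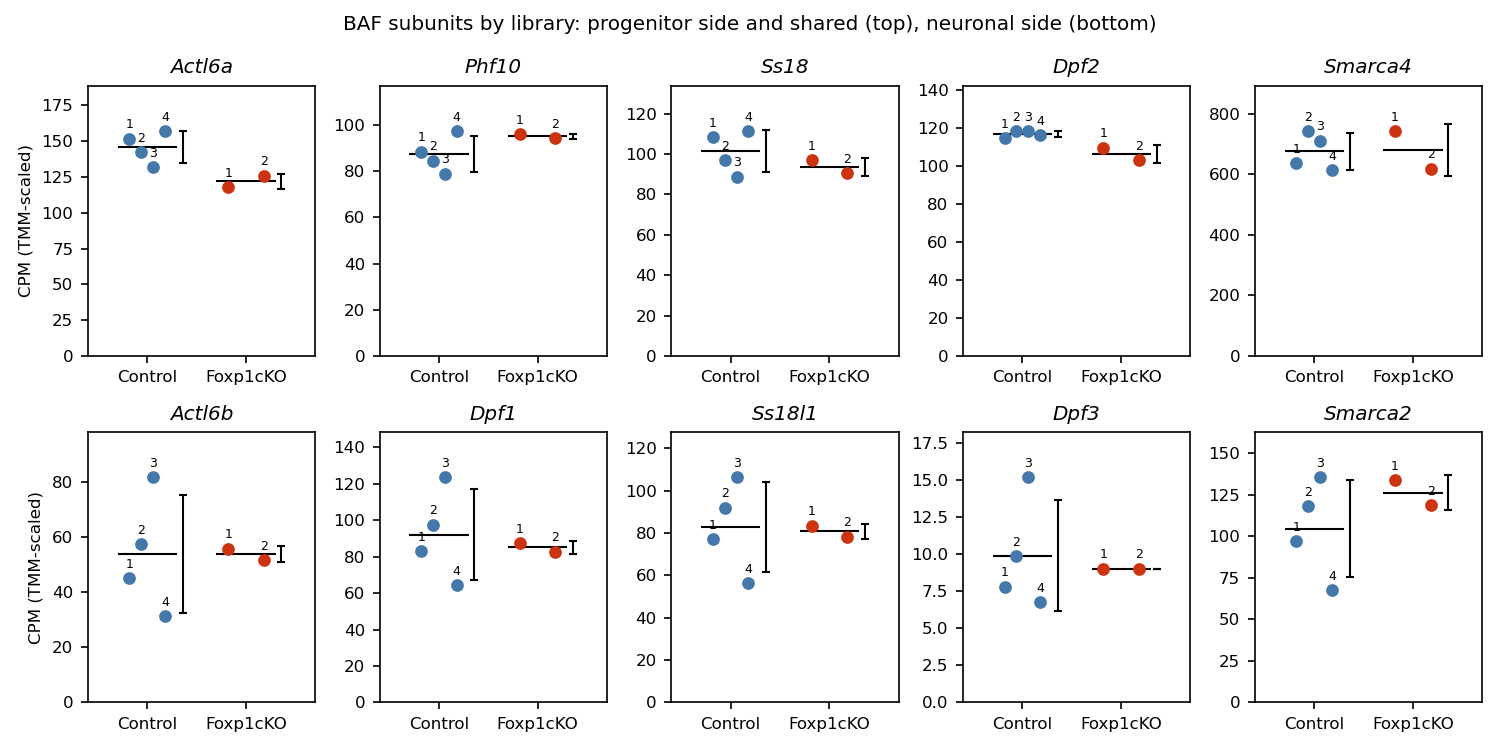
Normalized level (CPM after TMM scaling) of each of the 10 subunits in every library, with progenitor and shared subunits in the upper row and neuronal subunits and Smarca2 in the lower row. Points are libraries with their replicate numbers, horizontal lines are group means and vertical bars are ± SD (n = 4 controls, n = 2 labelled Foxp1cKO). Actl6a and Dpf2 are below all controls in both libraries labelled Foxp1cKO, and the neuronal subunits spread widely among the controls, with control 4 lowest and control 3 highest.

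Actl6b, the neuronal actin-related subunit (ENSMUSG00000029712.14, chr5:137553517-137569582), had 45.1, 57.5, 81.7 and 31.3 CPM in controls 1 to 4, a range of 2.61-fold. The libraries labelled Foxp1cKO, at 55.9 and 51.7 CPM, were close to each other and between controls 1 and 2. The log2 difference was -0.0032 (SE 0.334, 95% interval -0.79 to 0.79, edgeR adjusted p = 0.996). At this spread, differences within that interval were not detectable. The interval is not adjusted over all genes, so differences beyond it could also have missed the threshold.

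Dpf1, a neuronal PHD finger subunit (ENSMUSG00000030584.14, chr7:29303951-29318243), had 83.1, 97.5, 123 and 64.2 CPM in controls 1 to 4, and 87.4 and 82.6 CPM in the libraries labelled Foxp1cKO. Its log2 difference was -0.11 (SE 0.234, 95% interval -0.67 to 0.44, edgeR adjusted p = 0.869). Dpf3, its paralogue, which reads acetylated histones (ENSMUSG00000021221.15, chr12:83213745-83487716), had 7.80, 9.85, 15.2 and 6.74 CPM in controls 1 to 4 against 9.02 and 9.004 CPM in the libraries labelled Foxp1cKO. For Dpf3 the difference was -0.13 (SE 0.320, 95% interval -0.89 to 0.62, edgeR adjusted p = 0.891). In both genes the controls spanned the libraries labelled Foxp1cKO on either side. Ss18l1, or Crest, a calcium-responsive coactivator needed for dendrite growth (ENSMUSG00000039086.9, chr2:180042509-180070201), had 77.0, 91.9, 106 and 56.3 CPM in controls 1 to 4 and 83.4 and 78.3 CPM in the libraries labelled Foxp1cKO. The Ss18l1 difference was -0.036 (SE 0.228, 95% interval -0.58 to 0.50, edgeR adjusted p = 0.966). In all 4 neuronal subunits control 4 was lowest, then controls 1 and 2, and control 3 was highest, and the libraries labelled Foxp1cKO lay inside the controls' range. The sign of each of the 4 differences turned without control 3, to 0.25 for Actl6b, 0.044 for Dpf1, 0.13 for Dpf3 and 0.091 for Ss18l1, and 0 of them passed the threshold there.

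Dpf2, the broadly expressed BAF45 paralogue (BAF45D; ENSMUSG00000024826.14, chr19:5896516-5913010), was the steadiest of the 10 among the controls, at 115, 118, 118 and 116 CPM, a range of 1.03-fold. The libraries labelled Foxp1cKO had 110 and 103 CPM, both below all controls. The log2 difference was -0.14 (SE 0.0668, 95% interval -0.29 to 0.021, edgeR adjusted p = 0.433). Dpf2 and Actl6a were the 2 of 10 subunits whose groups did not overlap, against 24.6% of all genes, and 0 subunits were above all controls in both libraries, against 11.5%.

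Smarca4, which encodes the ATPase BRG1 (ENSMUSG00000032187.16, chr9:21616169-21704230), had 637, 744, 712 and 615 CPM in controls 1 to 4 and 743 and 619 CPM in the libraries labelled Foxp1cKO. The libraries labelled Foxp1cKO thus differed from each other about as much as the controls did. Its difference was 0.0090 (SE 0.117, 95% interval -0.27 to 0.28, edgeR adjusted p = 0.982). Smarca2, which encodes the alternative ATPase BRM and increases as neurons mature (ENSMUSG00000024921.17, chr19:26605050-26778322), had 97.0, 118, 135 and 67.6 CPM in controls 1 to 4 and 134 and 119 CPM in the libraries labelled Foxp1cKO. These were in the upper part of the controls' range. The log2 difference of 0.27 was the highest of the 10 (SE 0.248, 95% interval -0.31 to 0.86, edgeR adjusted p = 0.670), and it was positive in all 15 alternative fits, between 0.11 and 0.40.

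To compare genes with one another, CPM was divided by the exonic length of each gene. In the controls, Smarca4 had 105 ± 9.45 CPM per kilobase (SD, n = 4) and Actl6a had 37.5 ± 2.84, and each was above the next gene in every control. Ss18l1 (19.1 ± 4.91), Dpf2 (17.96 ± 0.267), Phf10 (17.8 ± 1.59), Dpf1 (17.1 ± 4.65), Actl6b (12.6 ± 5.01), Ss18 (10.8 ± 1.11) and Smarca2 (7.33 ± 2.05) followed in CPM per kilobase. The controls' ranges of neighbours in this series overlapped, so that its order is not fixed. It also depends on the length used. The exonic length is 9419 bases for Ss18 and 14269 for Smarca2, against 4153 and 5921 bases for their longest transcripts. Dpf3 was lowest, at 2.34 ± 0.886 CPM per kilobase, below Smarca2 in every control. In the libraries labelled Foxp1cKO the corresponding means were 105 for Smarca4, 31.4 for Actl6a, 8.84 for Smarca2 and 2.13 for Dpf3.

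The balance within each pair was expressed as the share of the neuronal paralogue in the pair's CPM per kilobase. Actl6b made up 21.3%, 26.9%, 36.03% and 15.4% of Actl6a plus Actl6b in controls 1 to 4, and 30.1% and 27.2% in the libraries labelled Foxp1cKO. The progenitor paralogue thus prevailed in every library. As a log2 ratio, Actl6b to Actl6a was -1.66 ± 0.69 over the controls (SD, n = 4) against -1.32 ± 0.14 over the libraries labelled Foxp1cKO (n = 2), and the difference of 0.34 was smaller than the SD of the controls. It was 0.61 without control 3 and 0.070 without control 4, so its size rested on those libraries.

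Ss18l1 made up 60.6%, 67.3%, 72.2% and 52.3% of the Ss18 pair in controls 1 to 4 and 65.1% and 65.3% in the libraries labelled Foxp1cKO. Which of these paralogues prevailed depended on the length used, since with the longest transcript of each gene the shares were 40.4%, 47.5%, 53.4% and 32.6% in the controls against 45.1% and 45.3% in the libraries labelled Foxp1cKO. The log2 ratio was 0.79 ± 0.54 over the controls against 0.90 ± 0.0062 in the libraries labelled Foxp1cKO, a difference of 0.11 that turned to -0.11 without control 4. Smarca2 made up 6.46%, 6.73%, 7.94% and 4.75% of the ATPase pair in controls 1 to 4 and 7.55% and 8.005% in the libraries labelled Foxp1cKO. Smarca4 prevailed by a wide margin in all 6 libraries with either length. The log2 ratio of Smarca2 to Smarca4 was -3.88 ± 0.33 over the controls against -3.57 ± 0.065 in the libraries labelled Foxp1cKO, a difference of 0.31 that was also below the SD of the controls and was 0.16 without control 4.

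Among the BAF45 paralogues, Phf10 took 34.0%, 30.8%, 26.4% and 38.7% of the family's CPM per kilobase in controls 1 to 4, and Dpf1 took 29.2%, 32.5%, 37.8% and 23.3%. Phf10 therefore exceeded Dpf1 in controls 1 and 4, and Dpf1 exceeded Phf10 in controls 2 and 3. This order depended on the length used, since with the longest transcript of each gene Dpf1 exceeded Phf10 in every library other than control 4. In the libraries labelled Foxp1cKO, Phf10 took 35.6% and 36.6% and Dpf1 took 29.7% and 29.3%. Dpf2 held between 29.9% and 34.9% in the controls against 30.8% and 30.1% in the libraries labelled Foxp1cKO, and Dpf3 held at most 5.90% in any library. The log2 ratio of Dpf1 plus Dpf3 to Phf10 was 0.093 ± 0.54 over the controls against -0.11 ± 0.034 in the libraries labelled Foxp1cKO. The difference of -0.20 was of the opposite sign to that of the other pairs and within the spread of the controls, and without control 3 it was 0.0089. The pairs therefore gave no common direction between the groups. With 4 libraries against 2, an exact permutation test cannot give a two-sided p below 0.133, and none was made.

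**Figure D2:**
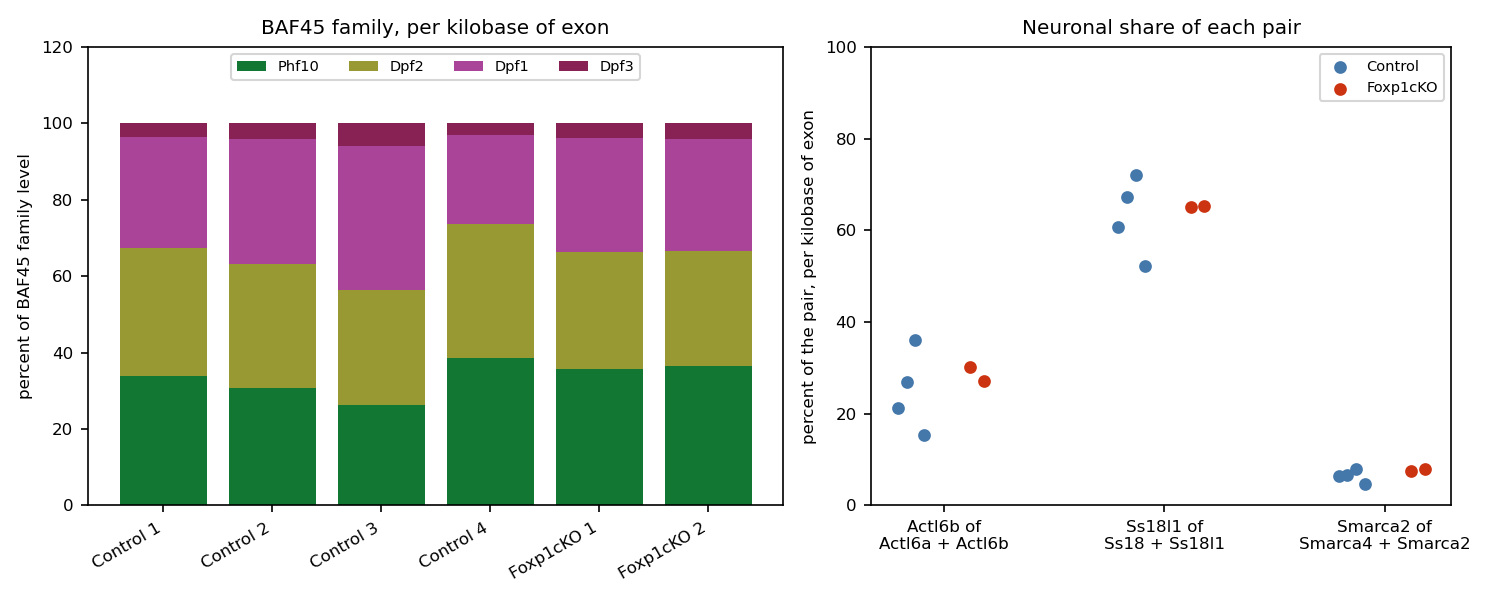
Shares of paralogues in CPM per kilobase of exon. The left panel stacks Phf10, Dpf2, Dpf1 and Dpf3 to 100% for each library, and the right panel gives the neuronal share of each pair with 1 point per library (4 controls, 2 labelled Foxp1cKO). Control 3 has the largest and control 4 the smallest share of Dpf1, Actl6b and Ss18l1, and the libraries labelled Foxp1cKO lie between them.

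The controls differed from one another along the switch more than the groups did. As a summary, the mean log2 CPM of Actl6a, Phf10 and Ss18 was subtracted from that of Actl6b, Dpf1, Dpf3 and Ss18l1. This score was -1.55, -1.15, -0.62 and -2.01 in controls 1 to 4 and -1.24 and -1.30 in the libraries labelled Foxp1cKO. Its means were -1.33 ± 0.59 (SD, n = 4) and -1.27 ± 0.043 (SD, n = 2), so the difference of 0.066 was a small part of the spread of the controls. Control 3, the only control homozygous for the floxed allele, was at the neuronal end and control 4 at the progenitor end. The genotype of control 3 and the library itself cannot be told apart. The difference was 0.30 without control 3 and -0.16 without control 4. Without control 1 it was -0.0061, and without both controls 3 and 4, a choice made after the values were seen, it was 0.082.

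All 3 progenitor subunits of the score were lowest in control 3, followed by controls 2, 1 and 4, an order of the controls found in 15.3% of all genes. All 4 neuronal subunits and Smarca2 had the reverse order, found in 13.4% of all genes. These orders were noted in the subunits themselves and are given as a description. Over the 13212 genes with a mean of at least 100 counts, the highest control had a median of 1.28 times and a 90th percentile of 2.03 times the CPM of the lowest. Actl6b and Dpf3 (2.25-fold) were beyond that percentile, and Smarca2 (2.00-fold), Dpf1 (1.92-fold) and Ss18l1 (1.89-fold) were just under it, whereas Actl6a, Phf10 and Ss18 spread by 1.19-fold, 1.24-fold and 1.26-fold. Markers of cell types also differed among the controls. The mean log2 CPM of the 7 neuron markers was 8.34, 8.59, 8.65 and 7.74 in controls 1 to 4, and that of the 7 radial glia markers was 7.46, 7.58, 7.27 and 7.67. By these means, control 3 was highest for neurons and lowest for radial glia, and control 4 the reverse. The members did not all follow. Of the 7 neuron markers, 4 had the controls' order of Actl6b, found in 13.4% of all genes. Of the 7 radial glia markers, 2 had that of Actl6a, found in 15.3%. Neurod2 and Tbr1 were highest in control 2 and Neurod6 in control 1. Fabp7 was lowest in control 4, and Hes5 and Slc1a3 in control 1. Interneuron markers (Dlx1, Dlx2, Gad1, Gad2 and Lhx6), which mark neurons of ventral origin, were at 5.28, 5.83, 7.07 and 5.17, and were thus also highest in control 3. Summed over their lists, the neuron markers were at 2490 to 4545 CPM, the radial glia markers at 2087 to 2511 CPM and the interneuron markers at 216 to 759 CPM in the controls. In the libraries labelled Foxp1cKO the sums were 3233 and 3357 CPM for neurons and 2352 and 2303 CPM for radial glia. For interneurons they were 472 and 354 CPM. These sums were inside the range of the controls for each list. Of single markers, 6 of 7 for neurons, 2 of 7 for radial glia and 5 of 5 for interneurons were so, against 40.6% of all genes. Slc1a3, 1 of the 7 radial glia markers, was above all controls in both libraries, against 11.5% of all genes. The median log2 fold changes were -0.20 for neuron, 0.13 for radial glia and 0.12 for interneuron markers, and 0 passed by edgeR, DESeq2 or limma. The part of these cells in the spread of the subunits was not tested.

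**Figure D3:**
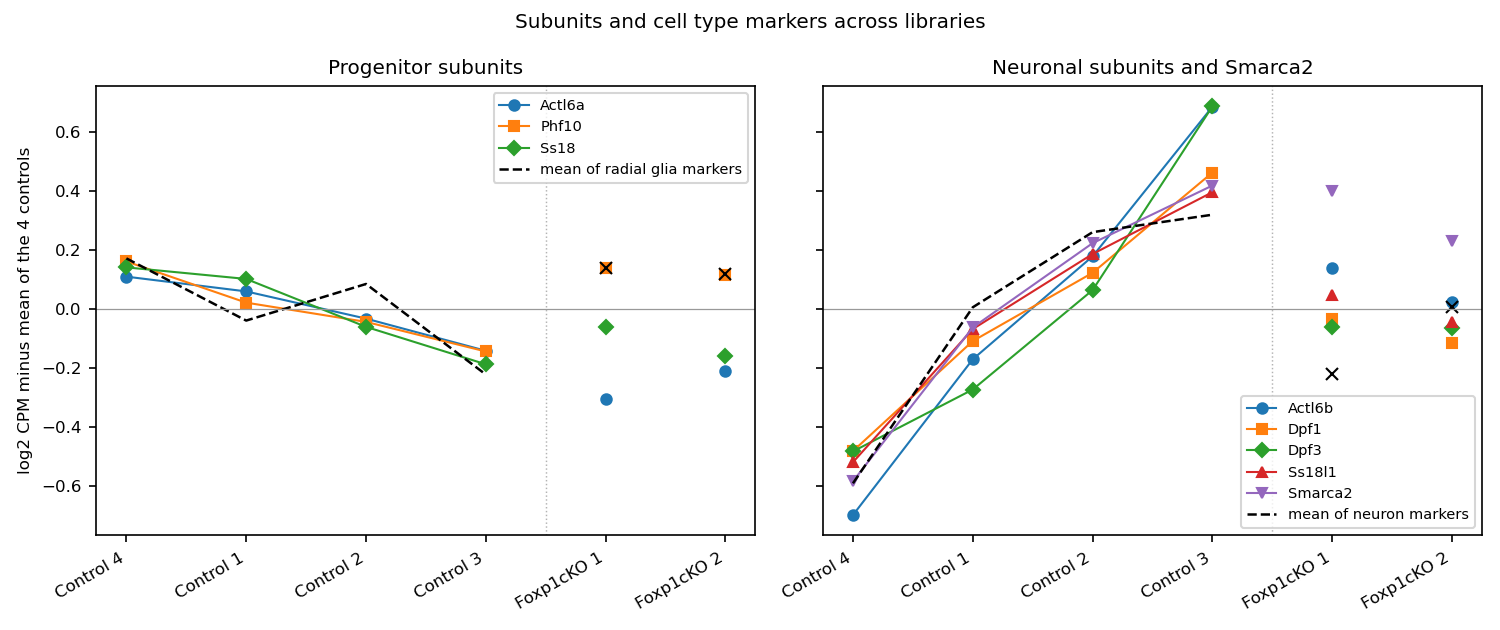
Log2 CPM of each subunit in each library minus its mean over the 4 controls, for progenitor subunits (left) and neuronal subunits with Smarca2 (right). Controls are placed by their Actl6b level and joined by lines, dashed lines are the means of the radial glia (left) and neuron (right) markers, and crosses are those marker means in the libraries labelled Foxp1cKO. The progenitor subunits are highest in control 4 and lowest in control 3, the neuronal subunits the reverse, and most points of the libraries labelled Foxp1cKO lie between the controls.

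Other subunits of BAF, PBAF and ncBAF complexes, which are not among the paralogues above, were read from the same fit. All 20 listed were in the table, 12 with positive and 8 with negative log2 fold changes, and their median was 0.035. By edgeR 0 of the 20 passed the threshold and 1 had an unadjusted p-value under 0.05, against 13.0% of all genes. By limma 0 passed, and by DESeq2, which called 3.36% of the genes it tested, 1 did. That gene was Arid1b, which encodes the DNA-binding subunit BAF250B. Arid1b had 141, 148, 160 and 155 CPM in controls 1 to 4 and 189 and 184 CPM in the libraries labelled Foxp1cKO, both above all controls. Its log2 fold change was 0.31 in edgeR (SE 0.0765, adjusted p = 0.242) and 0.31 in DESeq2 (SE 0.0923, adjusted p = 0.0296). Its paralogue Arid1a had a value of 0.24 (SE 0.110, edgeR adjusted p = 0.408), with the libraries labelled Foxp1cKO at 562 and 455 CPM and the controls at 393 to 461 CPM. Among the 20, both libraries labelled Foxp1cKO were above all controls for Arid1b and Bicral (ncBAF) (2 of 20, against 11.5% of all genes) and below all controls for Smarcd2 and Smarce1, a core subunit (2 of 20, against 13.1%). The core subunits Smarcb1, Smarcc1, Smarcd1 and the PBAF subunit Pbrm1 had values between 0.032 and 0.049. Those of Smarcc2, Smarcd2, Smarcd3 and Smarce1 were negative, at -0.065, -0.19, -0.23 and -0.10. Bcl7a, at -0.25, was the lowest of the 20. Of the 20, 6 (Smarcc2, Brd9, Bcl11a, Bcl11b, Bicra and Bicral) had the same order of controls as Actl6b, against 13.4% of all genes. Among these was Bcl11b, which encodes CTIP2, a BAF-associated factor of deep-layer neurons. It had 269, 337, 387 and 204 CPM in controls 1 to 4 and 309 and 332 CPM in the libraries labelled Foxp1cKO, with a log2 difference of 0.096 (SE 0.233).

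**Figure D4:**
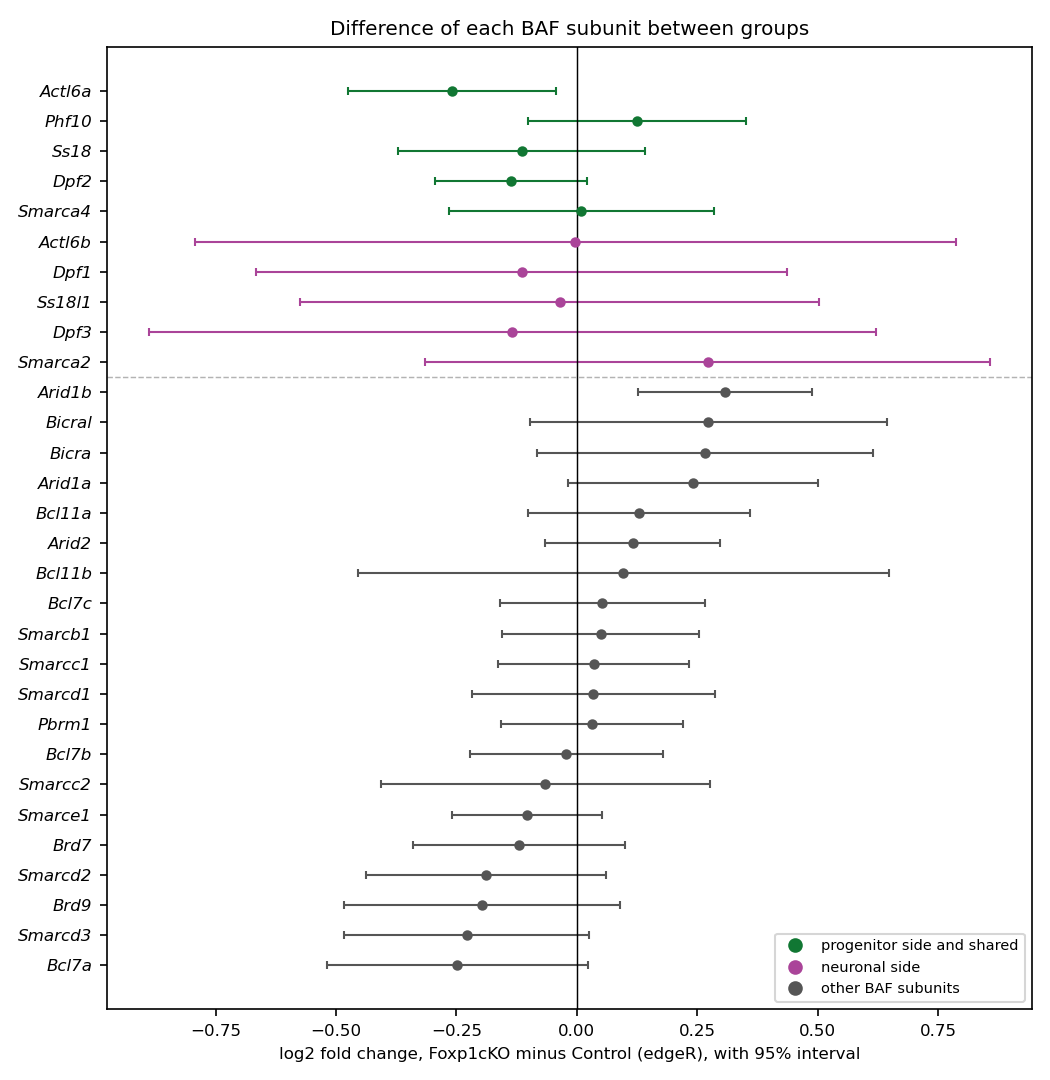
Log2 fold change of each BAF subunit (libraries labelled Foxp1cKO minus controls, edgeR) with its 95% interval. The 10 subunits of the switch are at the top, progenitor and shared ones in green and neuronal ones with Smarca2 in purple, and the 20 other subunits in grey are sorted by value. The intervals of Actl6a (below 0) and Arid1b (above 0) leave out 0 before adjustment for multiple tests, and the neuronal subunits have wider intervals than the progenitor ones.

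Rest, which encodes the repressor described above, had 44.5, 42.3, 37.0 and 54.3 CPM in controls 1 to 4 and 55.8 and 57.9 CPM in the libraries labelled Foxp1cKO, both above all controls. Its log2 difference was 0.35 (SE 0.145, edgeR adjusted p = 0.374), and among the controls it had the order of Actl6a, lowest in control 3 and highest in control 4. Over all genes, 15.3% had that order. The corepressors Rcor1 and Rcor2 had values of 0.13 (SE 0.0756) and 0.19 (SE 0.0867), also with both libraries above all controls. Kdm1a, the demethylase that acts with them, had a value of -0.22 (SE 0.104), and the splicing factors Ptbp1 and Ptbp2, which themselves change over at neuronal differentiation, had values of -0.21 and 0.098. Of these 6 regulators, 3 were above all controls in both libraries, against 11.5% of all genes. By edgeR, DESeq2 or limma 0 passed the threshold, against 0.152%, 3.36% and 0.158% of the genes tested. In edgeR 1 of the 6, Rest, had an unadjusted p-value under 0.05, against 13.0% of all genes.

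Mature microRNAs were not measured here, and their host transcripts were read instead. Mir9-3hg, which spans Mir9-3, a source of the miR-9-3p shown above, had 576, 466, 530 and 477 CPM in controls 1 to 4 and 384 and 392 CPM in the libraries labelled Foxp1cKO. Both of these were below all controls, which held for 1 of the 4 hosts, against 13.1% of all genes. Its log2 fold change was -0.40 in edgeR (SE 0.105, adjusted p = 0.256) and -0.40 in DESeq2, where it passed the threshold (SE 0.124, adjusted p = 0.0444). DESeq2 called 3.36% of the genes it tested, and limma did not call Mir9-3hg. C130071C03Rik, which spans Mir9-2, had a value of -0.13 (SE 0.0914), with controls at 416 to 494 CPM and the libraries labelled Foxp1cKO at 426 CPM each. The hosts of miR-124, Mir124a-1hg and Mir124-2hg, had values of -0.033 (SE 0.367) and 0.042 (SE 0.195). Mir124a-1hg had 125, 127, 207 and 69.9 CPM in controls 1 to 4 and 140 and 118 CPM in the libraries labelled Foxp1cKO. Its controls had the same order as for Actl6b, found in 2 of the 4 hosts and 13.4% of all genes. Of the 4 hosts, 3 were thus negative and 1 positive, against 50.7% negative over all genes. Both miR-9 hosts read were negative, and the values of the miR-124 hosts were small beside their SEs.

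Over the 6 libraries, the genes whose log2 CPM followed Actl6b most closely among 13211 genes compared were Csrnp3 (Pearson r = 0.999), Pcdh1 (0.998), Mycbp2 (0.997), Sema3f (0.996) and Evi5l (0.996). Those closest to Actl6a were Abcf2 (1.00), Tysnd1 (0.997), Polr1e (0.997), Gnpat (0.997) and Prpf19 (0.996). With 6 libraries such values are common, since 889 genes had r above 0.9 with Actl6b and 758 with Actl6a, and all of these genes were measured in the same 6 libraries.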

How the data were processed

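The authors made stranded TruSeq libraries, sequenced paired ends, used STAR for alignment to mm10 and HTSeq 0.9.1 (union mode) for counting, and dropped weakly expressed genes. The deposited table holds whole, unnormalized counts of 17068 genes, and the authors also deposited VST values of it on a log2-like scale. Only GEO's labels set the groups. They do not give the litter, a term of the authors' own model. Identifiers were matched to GENCODE M21 (17047 matched, 21 did not), another release of the same assembly than the authors'.

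In R 4.3.3, counts were tested over all genes with edgeR 4.0.16's quasi-likelihood test (TMM, group alone, Benjamini-Hochberg adjustment, threshold 0.05). The p-values measure the spread between these embryos. DESeq2 1.42.0 (Wald test) and limma 3.58.1 (trend, on VST values) were alternatives, with other scalings, filters, left-out libraries and a replicate block. CPM values are TMM-scaled, log2 CPM used a prior count of 2, and lengths are exon unions. The members and lists were chosen with earlier results of these data known. Named genes are the listed subunits, regulators, microRNA hosts, markers and the 5 genes most like Actl6b and the 5 most like Actl6a. A floor of 3 counts is 0.0381 to 0.0596 CPM and covers counting error only. Replicates differed far beyond counting error, with a chi-square per gene of 25.9 to 193 between controls and 31.4 between the libraries labelled Foxp1cKO. All 3 fits were tested on simulated data with known answers, on which DESeq2 made more calls, a larger share of them false, than edgeR or limma. Of 200 planted changes, edgeR found 117, limma 118 and DESeq2 149, so changes can be missed by each. The simulated counts were drawn with edgeR's own dispersions, without litters or cell mixtures, so this ranking may not hold for these data. Sequences came from RefSeq (GRCm38.p6) and GENCODE M21.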

Additional observations from a re-analysis of the deposited data

Results flagged for a closer look

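Chd4, which encodes the ATPase of the NuRD remodeller, was the 1 value singled out among 54 checks of single libraries for a gap to the other controls. It had 700 CPM in control 1, 797 CPM in control 2, 685 CPM in control 3 and 690 CPM in control 4, so that control 2 stood apart by 0.866 of the controls' whole range. By chance about 1 in 20 such checks would single out a library. The libraries labelled Foxp1cKO had 701 and 623 CPM, and the log2 difference was -0.12 (SE 0.0982, edgeR adjusted p = 0.640). None of the 10 subunits of the switch was singled out in this way.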

How the results depend on the processing

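In 15 alternatives, 0 of the 10 subunits of the switch passed the threshold. Actl6a, Phf10, Dpf2, Ss18 and Smarca2 kept their direction in each. Among all genes, 26 passed by edgeR, 507 by DESeq2 (310 higher, 197 lower), and from 2 (without control 2) to 96 (without control 4) with 1 library left out, namely 6 without control 1, 9 without the library labelled Foxp1cKO 1 and 3 without Foxp1cKO 2. DESeq2 called 1 of the other BAF subunits, Arid1b, where edgeR called 0. The cause of these shifts was not tested. With the longest transcript in place of the exon union, the control level of the log2 ratio of Ss18l1 to Ss18 went from 0.79 to -0.39 and that of Smarca2 to Smarca4 from -3.88 to -2.63.

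Replicate numbers 1 and 2 occur in both groups, and no label says that they mark a shared litter or batch. The differences between numbers 1 and 2 correlated at -0.117 between the groups. With the replicate block on these 4 libraries, 0 genes passed, with 3027 at an unadjusted p under 0.05. The numbers were then crossed, a pairing chosen after seeing the data, and 1301 of 17068 genes passed (842 higher, 459 lower). Among them were 2 of the 20 other BAF subunits (Arid1b and Bicra), Rest and Mir9-3hg, but 0 of the 10 subunits of the switch. Since the pairing was picked from these data, these calls are a description only. Leaving out controls 3 and 4 together, also chosen after seeing the data, gave 63 genes.

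Signs turned for small values. Actl6b was at 0.076 with limma, 0.016 with total counts, 0.0084 with a mean of at least 100 counts, 0.076 with the replicate block, 0.078 with the crossed block and 0.068 without controls 3 and 4. In these last 3 fits Smarca4 was at -0.021, -0.021 and -0.020 and Dpf3 at 0.039, 0.041 and 0.030. Ss18l1 was at 0.0037 with limma. With 1 library left out, Smarca4 ranged from -0.13 to 0.12. Actl6b ranged from -0.19 to 0.25, Dpf1 from -0.25 to 0.044, Dpf3 from -0.28 to 0.13 and Ss18l1 from -0.18 to 0.091, each of these 4 lowest without control 4 and highest without control 3. Among the other BAF subunits, Smarcc1 ranged from -0.052 to 0.10, Smarcc2 from -0.20 to 0.036, Smarcd1 from -0.062 to 0.11, Pbrm1 from -0.026 to 0.071, Bcl7b from -0.060 to 0.0023, Bcl7c from -0.0043 to 0.089 and Bcl11b from -0.049 to 0.23. All alternatives left the differences of the paralogue ratios and of the score within 1 SD of the controls of their main values.

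The limits are 2 libraries labelled Foxp1cKO, a targeted gene that was not lower in them, an unknown litter and controls that differ in cell type markers. For the neuronal subunits the 95% intervals reach from -0.89 to 0.79, at 454 or more counts per library. Where a fit leaves 1 library labelled Foxp1cKO, it is taken to vary like the controls.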

Other observations

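Genes reported to depend on the neuronal BAF complex were read as well. Gap43, which encodes a protein of growing axons, had 110, 141, 163 and 82.1 CPM in controls 1 to 4 and 116 and 119 CPM in the libraries labelled Foxp1cKO, with a log2 difference of -0.074 (SE 0.251). Stmn2, a regulator of microtubules in neurites, had 239, 314, 370 and 217 CPM in controls 1 to 4 and 270 and 310 CPM in the libraries labelled Foxp1cKO, with a log2 difference of 0.027 (SE 0.215). Both had the controls in the order of Actl6b, lowest in control 4 and highest in control 3, as did 13.4% of all genes. Rap1a, which encodes a small GTPase, did not, and its log2 difference was 0.089 (SE 0.103). Of the 3 genes, 0 passed the threshold or had an unadjusted p-value under 0.05 in edgeR, and 0 passed by DESeq2 or limma. Over all genes, 13.0% had an unadjusted p-value under 0.05 in edgeR.

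Of 5 ATPases of other remodellers, 2 (Chd3 and Chd5) had the controls in the order of Actl6b, against 13.4% of all genes. Chd5, which is expressed mainly in neurons, had 36.6, 57.2, 76.8 and 28.3 CPM in controls 1 to 4, a range of 2.71-fold, and 60.1 and 40.5 CPM in the libraries labelled Foxp1cKO. For Chd3, the controls spanned 1.56-fold. The ISWI ATPases Smarca5, the progenitor form, and Smarca1, the form of maturing neurons, had log2 differences of -0.099 (SE 0.120) and 0.059 (SE 0.120) and no such order. Of the 5 ATPases, 0 passed the threshold or had an unadjusted p-value under 0.05 in edgeR, where 13.0% of all genes had the latter. By DESeq2 or limma 0 passed.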
